A study of Mus musculus with 2 samples.

Results

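All-cell cluster 7 is a group of fibroblast-like cells from the base of the mouse lower incisor, marked by the secreted Wnt inhibitor Sfrp2 together with the matrix genes Col3a1 and Dcn. Its members were the cells that the deposited cell table places in cluster 7 of the clustering of all cells. It held 872 of 23528 cells. Of these, 102 came from the 9708 cells of the control library and 770 from the 13820 cells of the Memo1-mutant library. The study asked about Memo1 and the enamel-forming ameloblast lineage, and no cell of cluster 7 was in the separately clustered ameloblast cells.

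Both libraries came from incisor tissue at postnatal day 20, 1 mouse per group. The control is labelled Control, with no allele named. The mutant is labelled Memo1;K14CRE, so Cre recombinase was under the keratin 14 promoter, which works in epithelium; the Memo1 allele is not spelled out. The tissue around the cervical loop, the stem cell niche at the growing end of the tooth, was taken with its epithelium and mesenchyme, digested with trypsin and dispase, and sequenced as 10x Genomics 3′ single-cell libraries. With 1 mouse per group no spread between mice could be estimated, so no p-value is given, and every interval below covers counting error only.

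Fibroblasts of the tooth region build the collagen-rich dental follicle, periodontal ligament, pulp and the connective tissue around the cervical loop. They secrete fibrillar collagens, small proteoglycans such as decorin (Dcn) that sit on collagen fibrils, and proteins such as periostin and tenascins that link cells to the matrix. Sfrp2 binds Wnt proteins outside the cell, and Wnt, BMP and FGF signals pass between this mesenchyme and the epithelium as the incisor renews itself.

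Levels are in CPM, counts per 1000000 UMIs: the molecules (unique molecular identifiers, UMIs) of a gene summed over the cells of a cluster in one library and divided by the total of those cells. Cluster 7 had 1111431 UMIs in the control and 8412307 in the mutant library. Its cells were of like depth in both, with a median of 10613.5 UMIs and 3314.5 genes in the control and 10435 UMIs and 3372 genes in the mutant. The median mitochondrial share was 8.32% and 7.63%. The libraries as a whole differed in depth, with medians of 2643 and 6798 UMIs per cell, and 139 cell barcodes occurred in both; 1 of these was a control cell of cluster 7.

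Some differences ran through the whole libraries. Xist, the RNA of the inactive X chromosome, had 0 UMIs in cluster 7 of the control and 1530.7 CPM in the mutant. The Y-linked Ddx3y had 82 UMIs in the control and 0 in the mutant. Sex and genotype therefore cannot be told apart. The pseudogene Gm10709 stood at 339 CPM in control cluster 7 and 1.07 CPM in the mutant, and was as far apart in cluster 13 (441 against 0.862 CPM). Memo1 had 10 UMIs in the control and 118 in the mutant cells of cluster 7, or 9.0 and 14 CPM, and its 3′ counts do not show whether an exon was deleted.

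The label was checked against its markers in the 26 clusters with at least 50 cells in each library. Sfrp2 was highest in cluster 7 in both libraries, at 3769.9 CPM in control and 11324 CPM in mutant cells. The next highest was the pulp-like cluster 6, with 2009 and 3126 CPM. Dcn was also highest in cluster 7, at 2309 CPM in control and 1229.5 CPM in mutant cells. Col3a1, which encodes a fibrillar collagen of soft connective tissue, stood at 5447 and 4193 CPM in cluster 7 and was highest in cluster 13, at 5596 and 7086 CPM. The label's 3 genes were thus all present, but Col3a1 did not single the cluster out.

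**Figure D1:**
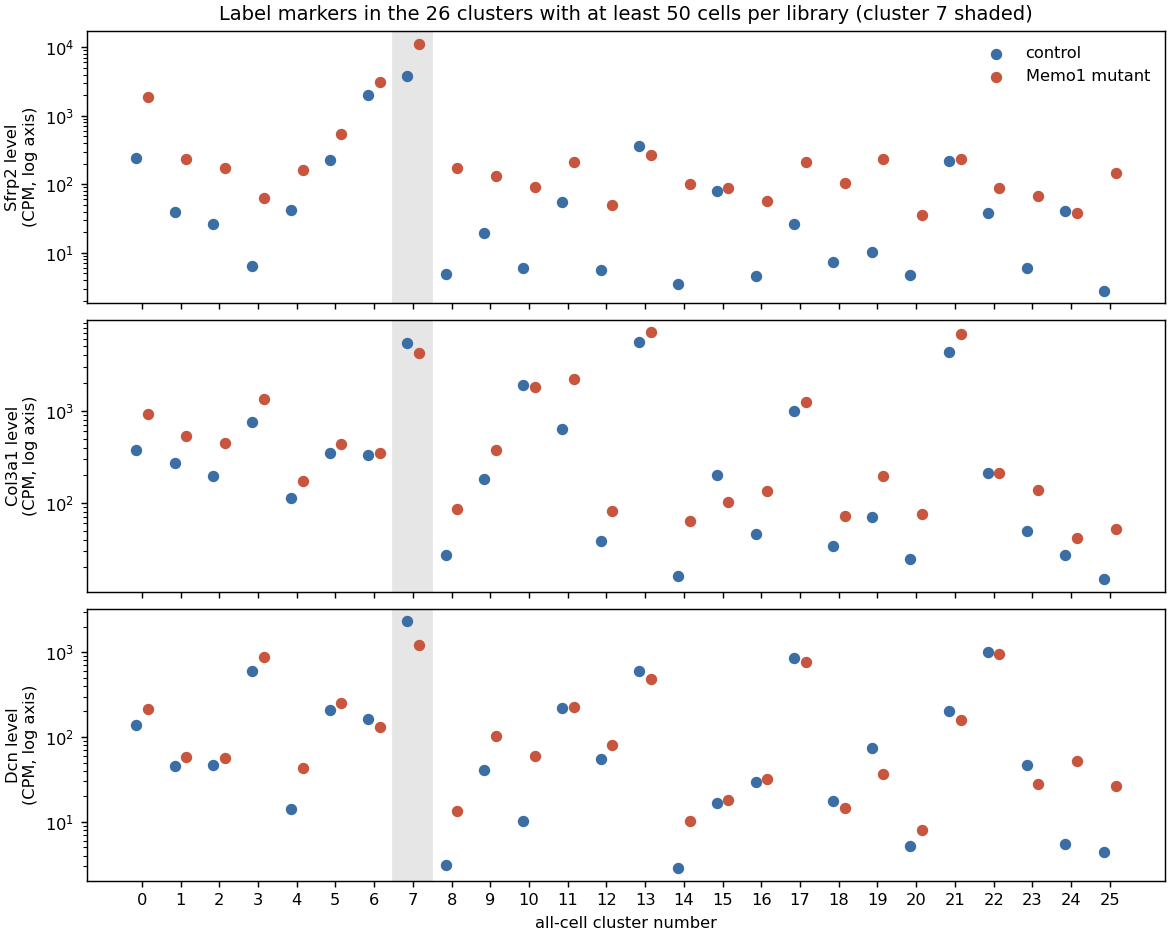
Levels of Sfrp2, Col3a1 and Dcn (CPM, log axes) in each of the 26 clusters with at least 50 cells per library; each point is the sum over the cells of a cluster in 1 library, blue for control and red for Memo1 mutant. Cluster 7, shaded, is highest for Sfrp2 (3769.9 and 11324 CPM) and Dcn (2309 and 1229.5 CPM), and clusters 13 and 21 are close to it or above it for Col3a1.

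Other fibroblast genes gave a mixed picture. Col1a1 (5712 and 2892 CPM in control and mutant), Lum (557 and 499 CPM) and the PDGF receptor gene Pdgfra (186 and 173 CPM) were well detected. Dpt (3.60 and 6.30 CPM), Mfap5 (21.6 and 23.3 CPM) and Pi16 (16.2 and 8.92 CPM), which mark fibroblasts of skin and vessel walls, were low. The list of 10 adventitial and progenitor fibroblast markers, which holds Mfap5 and Pi16, summed to 596 and 423 CPM in cluster 7, above clusters 13 (284 and 313 CPM) and 21 (178 and 209.9 CPM) and below cluster 8 (3396 and 3541 CPM). Its largest member, Ly6a, was at 271 and 118 CPM. Of 4 members tested, 3 were called higher in cluster 7 than in cluster 13 and 1 lower, and 3 were higher than in cluster 21 and none lower. The tendon and ligament genes Scx (8.10 and 7.96 CPM) and Tnmd (3.60 and 7.01 CPM) were low as well. Summed over a list of 12 dental follicle and periodontal ligament markers, cluster 7 was the highest cluster in both libraries, with 4052 CPM in control and 2350 CPM in mutant cells. Most of the control sum was Tnn (1540.4 CPM) and Postn (1405 CPM), which were at 451 and 654 CPM in the mutant. Of 6 members tested, 2 were called higher in cluster 7 than in cluster 13 and none lower. Against cluster 21, 1 of 6 was higher and none lower.

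The 13 dental pulp and papilla markers summed to 4060.5 and 4419 CPM in cluster 7, second to cluster 6 (5753 and 6577 CPM), and above the follicle and ligament sum in both libraries. Most of it was Igfbp3, at 3117 and 3530.2 CPM; the endothelium-like cluster 8 had a pulp sum of 2644 and 2916 CPM. Of 5 measured members, Crabp1 (35.1 and 176 CPM) was called higher in the mutant and none lower.

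The 10 endothelial markers summed to 31.5 and 91.5 CPM in cluster 7, against 12799 and 11635 CPM in the endothelium-like cluster 8. The 10 macrophage markers summed to 116 and 186 CPM, and the odontoblast gene Dspp was at 0 and 1.07 CPM. Transcripts typical of other cell types were visible: the enamel gene Amelx stood at 1217 and 920.4 CPM and the haemoglobin gene Hbb-bs at 2117 and 1834 CPM. The 6 erythroid markers summed to 3245 and 3418 CPM in cluster 7. The sums were 5463.5 and 523 CPM in cluster 13, 1772 and 245 CPM in cluster 6, and 1181 and 5589 CPM in cluster 8. Whether such transcripts came from RNA floating free in the suspension (free RNA) or from doublets was not tested. Krt14, a keratin of dental epithelium, was at 75.6 and 21 CPM. Doublets were not called.

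Cluster 7 made up 1.05% of control cells (95% Clopper-Pearson interval 0.857 to 1.27%) and 5.57% of mutant cells (5.19 to 5.97%). The share is a property of 2 dissections and of a clustering that read genes which themselves differ between the libraries, so no direction is drawn from it.

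The genes that set cluster 7 apart are a description, since the clusters were made from them. By ratio to the next highest cluster, the first was Crispld2, a secreted cysteine-rich protein, at 669 CPM in both libraries, against 207 and 191 CPM in cluster 13. Mmp13, an interstitial collagenase, stood at 456 CPM in control and 1148 CPM in mutant cells; the next cluster, 4, had 194 and 158 CPM. Gas1, a surface protein that binds hedgehog ligands, was at 693 and 388 CPM, and the calmodulin regulator Pcp4 at 743 and 1545 CPM. Crispld2 was steady between the libraries while Mmp13 and Pcp4 were higher in the mutant and Gas1 was lower, by less than 2-fold.

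Wnt pathway genes were among the other leading genes. Sfrp4, a relative of Sfrp2, had 193 and 123 CPM, 4.02-fold and 1.93-fold that of the next cluster with 10 CPM added to both. The Wnt receptor Fzd1 had 247 and 234 CPM. The guidance cue Ntn1 (62.1 and 97.0 CPM), the gelatinase Mmp2 (611 and 566 CPM) and the complement C1 inhibitor Serping1 (525 and 596 CPM) were also highest in cluster 7 in both libraries. Gpha2, an alpha subunit of a glycoprotein hormone, was at 2000.1 CPM in control cluster 7 and 864 CPM in the mutant, above cluster 5 with 328 and 619 CPM. Only a minority of the cells of cluster 7 held a Gpha2 UMI in either library (counts below).

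Of 27 leading genes, by the next cluster or by all other cells, 17 lay within 2-fold between the libraries, 7 were at least 2-fold higher in the mutant and 3 (Postn, Gpha2 and Tnn) at least 2-fold lower. In all, 77 of 2793 genes with at least 50 CPM in cluster 7 in both libraries were highest there of the 26 clusters.

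Over the same 26 clusters, the gene whose level went most closely with that of Sfrp2 was Gm26771 (Pearson's r of log2(CPM + 10), 0.94 in the control and 0.97 in the mutant). It is annotated on GRCm38 as an antisense RNA at chr3:83773853-83789956 on the minus strand and overlaps the end of Sfrp2 at chr3:83766321-83774316 on the plus strand. How the counting used strand is not given in the sources used here, so its counts are uncertain. Others close to it were Tspan11 (0.91 and 0.89), Igfbp6 (0.90 and 0.87), Thbs4 (0.85 and 0.87), Rspo1 (0.93 and 0.84), H19 (0.87 and 0.81) and Snhg11 (0.81 and 0.89). Clusters of one library share its depth and free RNA, so these values describe the libraries. Over 7586 genes, the profile of cluster 7 was nearest to cluster 13 (r of 0.92 and 0.93) and then to cluster 6 (0.91 and 0.92).

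Clusters 13 and 21 were compared with cluster 7 within each library. Cluster 13 had 224 control and 430 mutant cells, of greater depth (medians 23367.5 and 18640 UMIs). Cluster 21 had 110 and 250 cells and was shallow (medians 1185.5 and 1167.5 UMIs), with a mitochondrial share of 17.3% and 18.4%. A gene was called where its CPM differed at least 2-fold the same way in both libraries. Against cluster 13, 150 of 3140 genes (4.78%) were higher in cluster 7 and 113 (3.6%) lower. Against cluster 21, 376 of 3184 (11.8%) were higher and 133 (4.18%) lower. Only 7 were lower once cells under 1000 UMIs or 500 genes or over 10% mitochondrial were left out. The median mitochondrial share of cluster 21 was above that limit in both libraries, so these limits left out much of it. Whether the fall came from the lost cells was not tested.

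Cluster 7 differed from cluster 13 in which Wnt and BMP genes it held. Sfrp2 was 10.5-fold above cluster 13 in the control (358 CPM there) and 41.9-fold in the mutant (270 CPM). The Wnt antagonist Dkk2 stood at 11.7 and 28.6 CPM in cluster 7 but at 716 and 554.5 CPM in cluster 13. Lef1, a nuclear effector and target of Wnt signalling, was at 15.3 and 20 CPM against 258 and 214 CPM. Bmp3, a BMP family member that can oppose other BMPs, was at 5.40 and 10.5 CPM against 858 and 722 CPM. Of 17 Wnt pathway genes tested, 2 were higher in cluster 7 (Sfrp2 and Sfrp4) and 5 lower (Sfrp1, Dkk2, Lef1, Nkd1 and Tcf7).

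Cluster 7 also held more of the genes Gpha2 (66.0-fold and 52.8-fold over cluster 13 in control and mutant), Mmp13 (56.5-fold and 31.8-fold), Ebf1, a transcription factor (133 and 261 CPM against 0.985 and 6.65 CPM), and the prostacyclin synthase Ptgis (160 and 208.5 CPM against 1.38 and 4.18 CPM). The mineralisation inhibitor Mgp was at 1249.7 and 693 CPM against 6.69 and 43.8 CPM. Cluster 13 held more of Fabp5, a fatty acid carrier (1390 and 830.1 CPM against 72.9 and 39.1 CPM in cluster 7), of Lrrc15 (383 and 293 CPM against 21.6 and 11.7 CPM) and of the bone sialoprotein gene Ibsp (70.5 and 148 CPM against 2.70 and 4.40 CPM). None of the 7 fibrillar collagens tested was called in either direction.

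Against the shallow cluster 21, the same marks recurred with coarser counts. Pcp4 was 37.6-fold (14.6 to 138) and 26.2-fold (17.5 to 41.4) higher in cluster 7. Thbs4 was 29.9-fold (5.29 to 1187) and 33.2-fold (11.3 to 161) higher, and the angiopoietin gene Angpt4 30-fold (8.23 to 248.5) and 13.1-fold (8.28 to 22.1). These folds are imprecise, since control cluster 21 had only 19.8, 4.94 and 9.88 CPM of the 3 genes. Bmp3 was 84.2-fold and 31.8-fold lower, and Dkk2 42.6-fold and 13.9-fold lower. Of 10 insulin-like growth factor genes and binding proteins, 6 (Igfbp2 to Igfbp7) were higher in cluster 7 in both libraries and none lower. The nuclear RNA Gm26917 was at 54.9 and 80.8 CPM in cluster 7 and at 958 and 904 CPM in cluster 21, whose cells had few UMIs and a high mitochondrial share. Whether depth had a part in these differences was not tested.

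**Figure D2:**
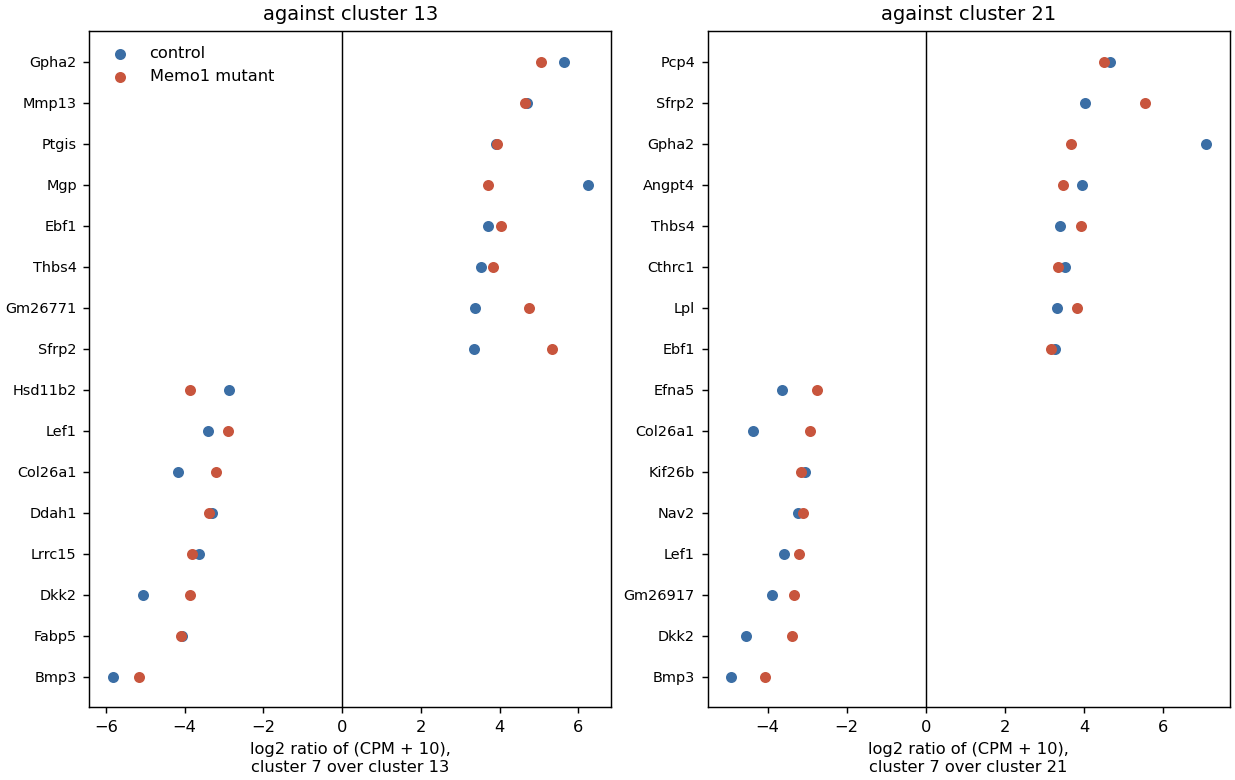
Genes that differed most between cluster 7 and clusters 13 (left) and 21 (right), 8 in each direction; the horizontal axis is the log2 ratio of CPM with 10 CPM added to both, blue for the control and red for the mutant library, with values above 0 higher in cluster 7. Sfrp2, Gpha2, Thbs4 and Ebf1 are to the right of 0 in both panels and Bmp3, Dkk2, Lef1 and Col26a1 to the left in both.

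Between the libraries, cluster 7 of the mutant had more transcript of Sfrp2, of the contractile genes Acta2, Tagln and Myl9, and of Igf2, H19, Ltbp2 and Mmp13, and less of Tnn, Postn and immediate early genes such as Fos, Jun and Junb. A gene was measured with at least 50 UMIs over both libraries and 50 CPM in the higher one, and called at a ratio of at least 2. Of 3329 measured genes, 73 (2.19%) were higher in the mutant and 53 (1.59%) lower, 3.78% in all. The median log2 ratio of all measured genes was 0.02, with quartiles of -0.16 and 0.20.

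**Figure D3:**
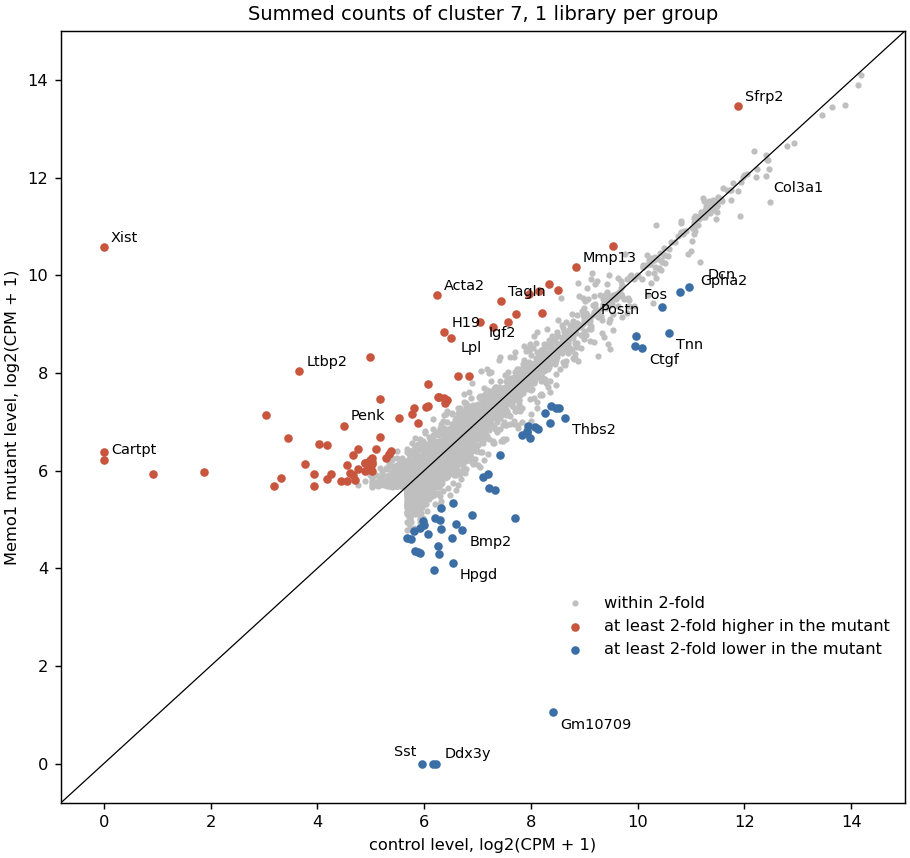
Levels of 3329 measured genes in cluster 7, as log2(CPM + 1), control on the horizontal and Memo1 mutant on the vertical axis; red points are at least 2-fold higher and blue points at least 2-fold lower in the mutant, 1 library per group. Sfrp2 (3769.9 and 11324 CPM) is the most abundant gene among those called higher, and Xist, Ddx3y and Gm10709 mark differences that run through the whole libraries.

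Sfrp2 itself stood at 3769.9 CPM in control and 11324 CPM in mutant cells, a ratio of 3.0 (2.91 to 3.10). Sfrp2 UMIs were also more frequent in mutant cells that should lack the gene: endothelium-like cluster 8 had 4.88 CPM in control and 172 CPM in mutant cells. Cluster 6, the next highest, had 2009 and 3126 CPM, and cluster 13 had 358 and 270 CPM. Over the 26 clusters the median level of Sfrp2 was 26.3 CPM in control and 153 CPM in mutant cells, so the gene was higher through much of the mutant library. Both levels in cluster 7 were far above those in cluster 8. The part of free RNA in the difference was not tested.

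Of 14 measured Wnt ligands, inhibitors and targets, Sfrp2 alone was called, and the median log2 ratio of the list was -0.08. Wif1, another secreted Wnt inhibitor, was at 914 CPM in control and 660 CPM in mutant cells, Dkk3 at 255 and 142 CPM, and Sfrp4 at 193 and 123 CPM. The non-canonical ligand Wnt5a was at 106 and 148 CPM, and the Wnt agonist Rspo1 at 105 and 130.1 CPM. The Wnt target Axin2 was too low to be measured, at 7.2 and 8.44 CPM.

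Some contractile genes were higher in the mutant. Acta2, smooth muscle alpha-actin, was at 74.7 CPM in control and 769.6 CPM in mutant cells, a ratio of 10.3 (8.30 to 13). On the log2 scale this was 3.37, and 2.48 with every cell thinned to 1000 UMIs. Tagln, an actin-binding protein of smooth muscle, was at 172 and 707 CPM, a ratio of 4.11 (3.56 to 4.77). Myl9, a myosin regulatory light chain, was at 189.8 and 527 CPM, a ratio of 2.78 (2.42 to 3.20). These 3 of 17 measured actin and contractile genes were called higher and none lower, 16 of 17 had a ratio above 1, and the median log2 ratio was 0.42. Actb, the actin of all cells, was at 2399.6 and 3070.3 CPM, and Tpm1, a tropomyosin, at 606 and 944 CPM, both within 2-fold.

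Pericyte markers were read beside them. The list of 10 pericyte and smooth muscle markers summed to 332 CPM in control and 1684 CPM in mutant cluster 7, against 25297 and 27624 CPM in cluster 10, and all 3 measured members (Rgs5, Acta2 and Tagln) were called higher. Rgs5, a pericyte marker, was at 15.3 and 93.1 CPM, a log2 ratio of 2.61, or 1.84 in thinned cells. Too low to be measured, Myh11 (2.70 and 15.8 CPM), Notch3 (9.0 and 19.3 CPM) and Cnn1 (0.90 and 30.6 CPM) had higher values in the mutant, while Des was at 1.80 and 0.119 CPM, which is 2 UMIs and 1 UMI. Cspg4 (27.9 and 19.6 CPM), Kcnj8 (13.5 and 16.5 CPM) and Abcc9 (14.4 and 12.8 CPM) had intervals that include a ratio of 1. No marker of the list was at 0 in either library. The part of cells of other types in the result was not tested. In cluster 13 the order was the other way for Acta2, at 827 CPM in control and 372 CPM in mutant cells. For Rgs5 it was the same way there, at 5.71 and 33.0 CPM. Rgs5 was also higher in mutant cells of cluster 21 (39.5 and 123 CPM), cluster 5 (14.3 and 31.0 CPM), cluster 6 (19.5 and 27.1 CPM) and cluster 8 (37.0 and 71.5 CPM). The Rgs5 difference is thus not particular to cluster 7.

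The genes Acta2 and Myl9 are shown with the CArG boxes near their starts, the motif bound by serum response factor, since both were called higher and varied together among cells (below). The box was searched as CC, 6 bases of which at least 5 are A or T, and GG, which reads as a CArG box on both strands, in the 250 bases before the RefSeq start of each gene (GRCm38.p6). It occurred in 8.59% of 32536 such promoters, and Acta2 and Myl9 each held 2. Each line gives 30 bases 5′ to 3′ on the gene's strand, with the box in capitals.
Acta2 site 1, chr19:34255438-34255467, minus strand: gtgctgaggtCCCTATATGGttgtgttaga
Acta2 site 2, chr19:34255388-34255417, minus strand: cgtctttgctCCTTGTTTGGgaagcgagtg
Myl9 site 1, chr2:156775293-156775322, plus strand: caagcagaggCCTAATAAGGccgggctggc
Myl9 site 2, chr2:156775355-156775384, plus strand: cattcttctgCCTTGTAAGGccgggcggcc
The Acta2 boxes lie 84 and 34 bases before the RefSeq start, inside the first exon of a longer GENCODE transcript, and the Myl9 boxes 161 and 99 bases before it, outside annotated exons. A match is a description of the letters and not a measured binding site.

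Matrix genes went both ways. Ltbp2, a latent TGF-beta binding protein family member of elastic fibres, was at 11.7 CPM in the control (13 UMIs in 7 cells) and 261 CPM in the mutant (2195 UMIs in 311 cells), a ratio of 22.3 (13 to 42.0). In cluster 13 it was at 0.197 and 4.68 CPM. Among 13 measured elastic fibre genes, Ltbp2 and the fibrillin Fbn2 (18 and 59.9 CPM) were called higher, Fbln2 (79.2 and 36.5 CPM) was called lower, and the median log2 ratio was 0.16. Fbln5, needed for elastic fibre assembly, was at 171 and 322 CPM, and Fbn1 at 156 and 174 CPM.

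Fibrillar collagens were lower in the mutant by less than 2-fold. All 7 measured members had a ratio below 1, with a median log2 ratio of -0.62, and none was called. Col1a1 was at 5712 CPM in control and 2892 CPM in mutant cells, 1.98-fold lower (1.92 to 2.03), just short of the limit. Col1a2 was at 3889 and 2377 CPM, and Col3a1 at 5447 and 4193 CPM. Of 5 measured fibril-associated and beaded collagens, Col16a1 (327.5 and 125 CPM) was called lower and none higher, and the median log2 ratio was -0.53. For fibrillar collagens the median was above 0 in the other clusters read. It was 0.25 in cluster 13, 0.75 in cluster 21, 0.35 in clusters 5 and 6 and 1.195 in cluster 8.

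Network and basement membrane collagens were on the other side, with a median log2 ratio of 1.00 over 5 measured genes, all above 1. Col18a1, the source of endostatin, was at 22.5 and 68.6 CPM, a ratio of 3.05 (2.04 to 4.75). Col4a2 (82.8 and 166 CPM, ratio 2.00) and Col8a2 (39.6 and 80.0 CPM, ratio 2.02) were called at the edge of the limit, and Col4a1 (138 and 205 CPM) and Col8a1 (207 and 344 CPM) were within it. The median of this list was also above 0 in clusters 5 (0.59), 6 (0.67) and 21 (0.16). It was below 0 in clusters 13 (-0.14) and 8 (-0.11).

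Among small leucine-rich proteoglycans, which bind collagen and growth factors, 2 of 8 were called higher and none lower (median log2 ratio 0.26). Prelp was at 17.1 and 90.6 CPM and Fmod at 26.1 and 64.4 CPM. Dcn was at 2309 and 1229.5 CPM, 1.88-fold lower (1.80 to 1.96), while Lum differed little, at 557 and 499 CPM.

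Tnn, Postn and Thbs2, matrix proteins that bind cells, were lower in the mutant. Tnn, tenascin-N, was at 1540.4 CPM in the control (1712 UMIs in 49 of 102 cells) and 451 CPM in the mutant (3794 UMIs in 308 of 770 cells), 3.42-fold lower (3.22 to 3.62). Cluster 13 had 150.2 and 171 CPM of Tnn, and cluster 21 had 183 and 453 CPM. Postn, periostin, was at 1405 and 654 CPM, 2.15-fold lower (2.03 to 2.27). Thbs2, a thrombospondin, was at 397 and 135 CPM, 2.94-fold lower (2.63 to 3.28). These are the 3 genes called lower of 7 measured on the dental follicle and periodontal ligament list; Fmod was called higher, 4 of the 7 had a ratio above 1, and the median log2 ratio was 0.01. Ogn, another member, was at 529 and 853 CPM, within 2-fold.

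Of 16 measured matricellular genes, 5 were called lower and 2 higher, with a median log2 ratio of -0.16. The lower ones were Tnn, Postn, Thbs2, Sparcl1 (118 and 33.3 CPM) and Ctgf, a connective tissue growth factor (1077 and 364.7 CPM). Without the 5% of cells with the most UMIs in each library, Ctgf was lower by only 0.69 on the log2 scale. Nov (8.10 and 50.6 CPM) and Smoc1 (14.4 and 60.2 CPM) were the higher ones, and fibronectin, Fn1, was within 2-fold at 349 and 421 CPM.

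For Col1a2 and Tnn, matrix genes lower in the mutant, the CCAAT box, CCAAT on either strand, was searched in the same 250 bases and is shown for comparison with the CArG boxes. Each gene held 1, as did 33.8% of promoters in at least 1 copy, so the match is common. Col1a2 also held 1 CArG box and Tnn none, while Acta2 and Myl9 held no CCAAT. The Col1a2 CCAAT box lies 109 bases before the RefSeq start, inside a GENCODE exon. The Tnn box lies 59 bases before it, outside annotated exons. Of the 7 genes with a promoter sequence, matches are reported only for these and for Acta2 and Myl9. Each line is again 30 bases 5′ to 3′ on the gene's strand with the motif in capitals; in Tnn it lies on the opposite strand and reads ATTGG.
Col1a2, chr6:4505497-4505526, plus strand: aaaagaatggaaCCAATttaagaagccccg
Tnn, chr1:160153617-160153646, minus strand: ggagtcccattgATTGGctcctcctctgtc

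Mmp13 was the 1 gene called among 12 measured matrix proteases and inhibitors, at 456 CPM in control and 1148 CPM in mutant cells, a ratio of 2.52 (2.30 to 2.76). Mmp14, a membrane collagenase, was at 471 and 302 CPM, Mmp2 at 611 and 566 CPM, and the inhibitor Timp3 at 740 and 469 CPM, all within 2-fold. The median log2 ratio of the list was -0.04.

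Growth factor genes gave single large differences within quiet lists. Igf2, an insulin-like growth factor of growing tissue, was at 130.5 and 525 CPM, a ratio of 4.02 (3.41 to 4.78). H19, the non-coding RNA beside Igf2 on chromosome 7, was at 81.9 CPM (91 UMIs in 20 cells) and 455 CPM (3828 UMIs in 373 cells), a ratio of 5.56 (4.51 to 6.92). Cluster 6 had 553 and 581.5 CPM of Igf2 and 242 and 246 CPM of H19, and cluster 5 had 650.2 and 235 CPM of Igf2, so the high values were not confined to cluster 7. Igf2 was the only one of 10 measured insulin-like growth factors and binding proteins called. Igf1 was at 569 and 1053 CPM, Igfbp3 at 3117 and 3530.2 CPM, and Igfbp5 at 2163 and 1931 CPM.

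Fgf7, a fibroblast-made growth factor for epithelium, was at 9.0 CPM (10 UMIs) and 56.8 CPM (478 UMIs), a ratio of 6.32 (3.40 to 13.3), the 1 gene called of 10 measured FGF, PDGF and hedgehog genes. With 60% of its control UMIs in 1 cell, the difference was larger without the top cell of each library, 3.94 on the log2 scale against 2.66. Fgf7 was at or below 2.81 CPM in clusters 5, 6, 8, 13 and 21. The hedgehog receptor and target Ptch1 was at 337 and 435 CPM, within 2-fold.

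In the BMP and TGF-beta pathway, 12 of 17 measured genes had a ratio below 1 (median log2 ratio -0.49). Bmp2 was at 104 CPM in control and 26.7 CPM in mutant cells, 3.90-fold lower (3.09 to 4.90). The BMP antagonist Grem1 was at 31.5 and 71.9 CPM, a ratio of 2.28 (1.62 to 3.31). The BMP target Id3 was at 2038 and 1447 CPM and Tgfb2 at 176 and 99.9 CPM, both within 2-fold. Bmp2 was the 1 gene called lower and Grem1 the 1 called higher.

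Retinoic acid genes had 3 of 7 measured members called higher and none lower (median log2 ratio 0.35). Aldh1a2, which makes retinoic acid, was at 12.6 CPM (14 UMIs) and 69.1 CPM (581 UMIs), a ratio of 5.48 (3.24 to 10.1). The binding protein Crabp1 was at 35.1 and 176 CPM, a ratio of 5.03 (3.66 to 7.10). Aldh1a3 (101 and 128 CPM) and Rdh10 (99.0 and 95.9 CPM) were within 2-fold. Cluster 6 had 184 and 198 CPM of Crabp1 and at most 1.86 CPM of Aldh1a2.

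Other genes named by rank were higher in the mutant from a low control count. Penk, the enkephalin precursor, was at 21.6 and 120.4 CPM (5.58-fold), the metalloprotease Pappa2 at 9.90 and 101 CPM (10.2-fold) and the ubiquitin ligase gene Pdzrn4 at 7.2 and 141 CPM (19.6-fold). Ptx3, a pentraxin, had 3 UMIs in the control and 519 in the mutant (22.9-fold, 7.78 to 111), a log2 ratio of 4.51 that was 2.37 in cells thinned to 1000 UMIs. The lipase Lpl was at 90.0 and 422 CPM, but 1 cell held 58% of its control UMIs, and the log2 ratio of 2.23 was 3.44 without the top cells. Scg2 had 1 and 506 UMIs, of which 43.5% were in 1 mutant cell.

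Cartpt, a neuropeptide precursor, had 0 UMIs in the control and 620 in the mutant, in 46 cells and with 23.5% of them in 1 cell. At 73.7 CPM it was at least 27.3-fold higher against a floor of 3 UMIs in the control cluster. It was also a mutant transcript in other mesenchyme, at 1.58 and 359 CPM in cluster 13 and at 0 and 66.1 CPM in cluster 6. Cartpt is thus not particular to cluster 7.

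Of 22 measured members of a list of early response and dissociation stress genes, 10 were called lower and none higher, 20 had a ratio below 1, and the median log2 ratio was -0.99. Fos was at 1779 CPM in control and 807 CPM in mutant cells, Jun at 988 and 374 CPM, and Junb at 999.6 and 429.7 CPM. Atf3 was at 95.4 and 28.9 CPM, 3.30-fold lower (2.60 to 4.16), and Egr1 at 712 and 357 CPM, 1.99-fold lower. These genes respond within minutes to enzymes and handling, and each library is 1 dissociation.

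The list differed between clusters. Its sum was 8309 and 4230.2 CPM in cluster 7 and about as far apart in cluster 3, at 9707 and 3935.5 CPM. It was also lower in the mutant in cluster 17 (3719.8 and 2571 CPM), cluster 6 (12812 and 10453 CPM) and cluster 5 (2803.5 and 2286 CPM, with 2 of 17 measured genes called lower and a median log2 ratio of -0.33). It was close in cluster 8 (13547 and 13511 CPM) and higher in the mutant in cluster 13 (2821 and 3747 CPM), cluster 21 (2232 and 3417 CPM), cluster 10 (10945 and 13244 CPM) and cluster 22 (771 and 939 CPM). The cause of these differences between clusters was not tested. Fos was at 327 and 590 CPM in cluster 13 and at 3017 and 3002 CPM in cluster 6. Whether the difference in cluster 7 is one of handling was not tested.

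**Figure D4:**
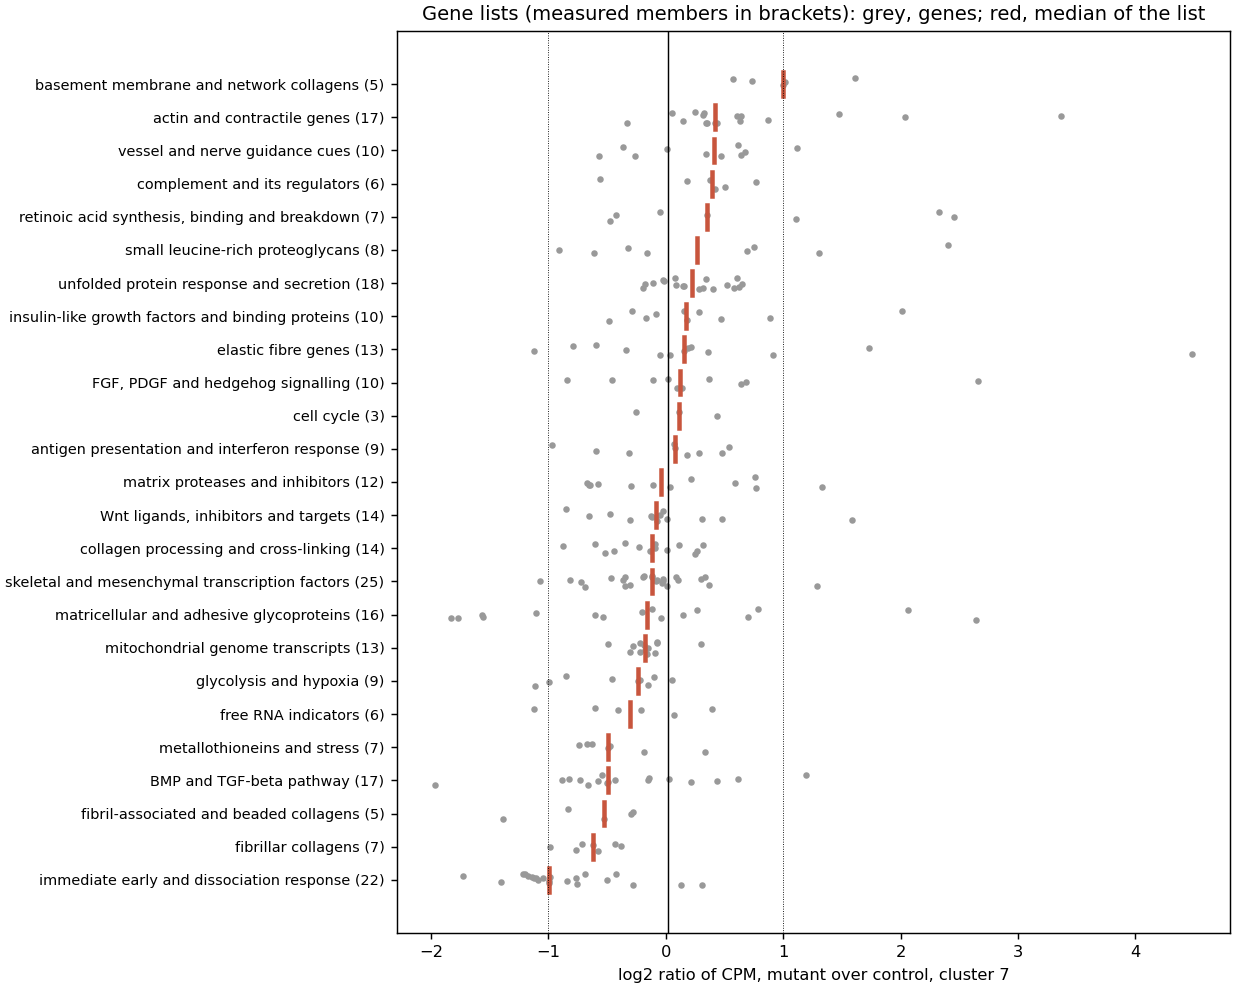
Log2 ratio of CPM, mutant over control, in cluster 7 for each measured gene of the functional lists with at least 3 measured genes (grey points, number of genes in brackets) and the median of each list (red bars); the solid line is the median of all 3329 measured genes (0.02) and dotted lines mark 2-fold. Immediate early genes (-0.99) and fibrillar collagens (-0.62) lie lowest and network collagens (1.00) and contractile genes (0.42) highest.

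The remaining lists held few or no calls. None of 18 secretory and unfolded protein response genes was called (median log2 ratio 0.22), with the chaperone Hspa5 at 500.3 and 747 CPM and Calr at 686.5 and 909.98 CPM. The 13 mitochondrial transcripts had a median of -0.18 and no call. Of 25 transcription factors of mesenchyme, Foxc2 (28.8 and 70.5 CPM) was called higher and Msx2 (54.9 and 26.2 CPM) lower, while Prrx1 (320.3 and 303 CPM) and Twist1 (235 and 216 CPM) were steady. Of 9 glycolysis genes, Hk2 (59.4 and 27.5 CPM) was called lower, and of 10 vessel and nerve guidance genes, Angpt1 (81.9 and 178 CPM) higher, with a median log2 ratio of 0.41 over the list. None of 6 measured complement genes was called, but 5 had a ratio above 1 and the median log2 ratio was 0.40, with the proteases C1s1 at 249 and 353.5 CPM and C1ra at 185 and 248 CPM. The chemokine Cxcl12 stood at 588 and 681 CPM. None of 14 collagen processing genes (median -0.11), 7 metallothionein and stress genes (-0.49) or 9 antigen presentation genes (0.08) was called. The proliferation marker Mki67 was at 2.70 and 1.31 CPM in cluster 7.

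Genes named for being lower also included some of few cells. Hpgd, which breaks down prostaglandins, was at 91.8 CPM in the control (19 cells) and 16.3 CPM in the mutant (70 cells), 5.64-fold lower (4.32 to 7.34). Inmt, a methyltransferase, was at 159 CPM (21 cells) and 47.8 CPM (65 cells), 3.33-fold lower, but lower by only 0.63 on the log2 scale in cells thinned to 1000 UMIs. Sytl2 was at 90.9 and 23.8 CPM, and the carboxypeptidase gene Cpm at 72.0 and 14.6 CPM. Sst had 79 UMIs, all in 1 control cell, and 0 in the mutant. Gpha2, seen in 23 control and 109 mutant cells, was 2.31-fold lower over all cells, but by 0.38 on the log2 scale without the 5% of cells with the most UMIs.

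Single cells of cluster 7 were compared after each was thinned at random to 4000 UMIs, which kept 91 control and 736 mutant cells and left out 11 and 34 shallower ones. Sfrp2 was detected in 68.1% of control cells (57.5 to 77.5%) and 87.4% of mutant cells (84.7 to 89.7%); unthinned, the shares were 72.5% and 90.5%. In cluster 8, whose median depth was 12518 and 10870.0 UMIs, 1.61% and 13.3% of thinned cells had an Sfrp2 UMI. The pulp-like cluster 6 had higher shares than cluster 7, at 73.9% of control and 92.3% of mutant cells after thinning. Detection of Sfrp2 thus did not set cluster 7 apart from cluster 6. Median levels per cell in cluster 6, not thinned, were 414 and 1317.5 CPM. In cluster 7, with cells not thinned, the median Sfrp2 level per cell was 626 CPM in control and 5710.5 CPM in mutant cells. The quartiles were 0 and 3645.5 CPM in control and 811 and 20157 CPM in mutant cells.

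Detection of other genes was read in the same cells. Acta2 was seen in 12.1% of control and 44.6% of mutant cells (4.42% and 6.37% in cluster 8), and 20.6% and 56.6% unthinned. Dcn was seen in 70.3% and 42.0% (1.20% and 3.19% in cluster 8), and 74.5% and 52.9% unthinned. In cluster 13 Dcn was seen in 65.9% of control and 56.4% of mutant cells after thinning, the mutant share being above that of cluster 7. The median Dcn level per cell, unthinned, was 1009.5 and 72.3 CPM in cluster 7. It was 322 and 197 CPM in cluster 13. Tnn was seen in 46.2% and 33.0% (1.20% and 1.06% in cluster 8), and 48.0% and 40.0% unthinned. Col3a1 was seen in 95.6% and 92.8% (11.6% and 25% in cluster 8), and 98.0% and 97.5% unthinned. Crispld2 was seen in 74.7% and 81.1% (0.803% and 2.65% in cluster 8), and 82.4% and 92.2% unthinned. Thinned cells of cluster 13 had Col3a1 in 100% in both libraries and Acta2 in 44.1% and 34.7%. They had Tnn in 22.3% and 29.4% and Crispld2 in 48.2% and 47.6%.

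Sfrp2 and Dcn, both marker genes of the label, tended to be rich in different cells, less clearly so in the control. Across the 91 control and 736 mutant cells, Pearson's r of log2(UMIs + 1) was -0.22 and -0.45 for Sfrp2 with Dcn. It was 0.61 and 0.50 for Sfrp2 with Pcp4, and 0.51 and 0.48 for Sfrp2 with Gas6, a secreted ligand of TAM receptor kinases. Cells of a library share its free RNA, and thinning evened their depth, so these are descriptions of 2 libraries. Of control cells with a Dcn UMI, 29.7% (19 of 64) had at least 8 Sfrp2 UMIs, against 70.4% (19 of 27) of those without. In the mutant the shares were 46.3% (143 of 309) and 79.9% (341 of 427).

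**Figure D5:**
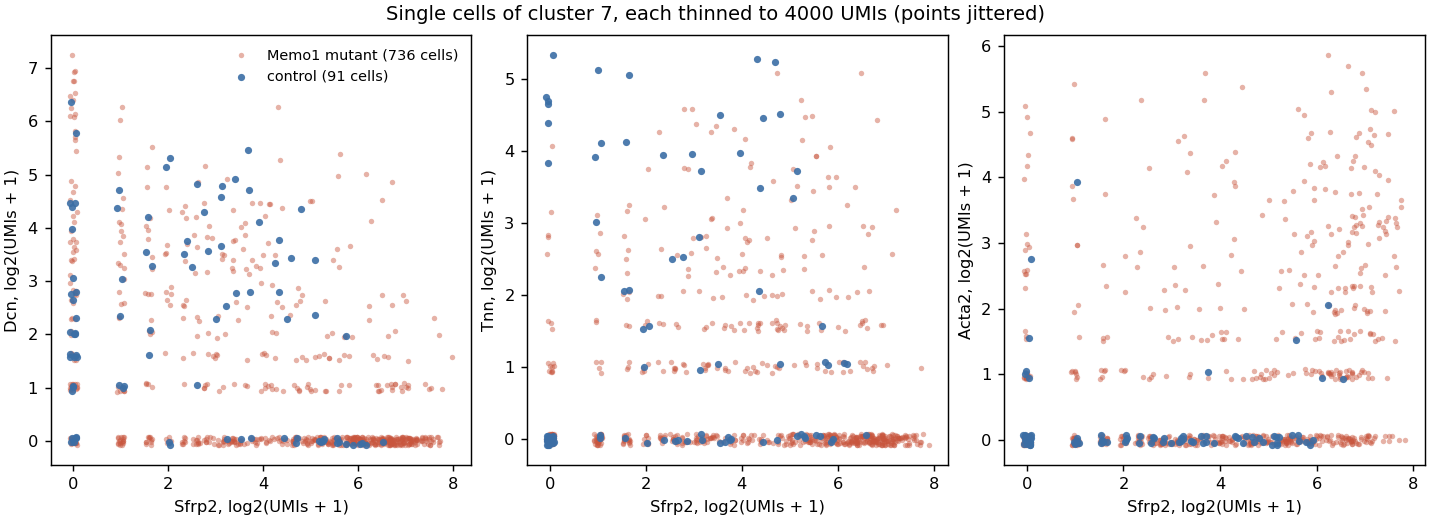
Single cells of cluster 7 after thinning to 4000 UMIs, with Sfrp2 on the horizontal axis and Dcn, Tnn or Acta2 on the vertical axes, all as log2(UMIs + 1) with a small jitter; blue, 91 control cells; red, 736 mutant cells. Dcn tends to be lower where Sfrp2 is higher, weakly in control cells (r of -0.22) and more so in mutant cells (r of -0.45). An Acta2 UMI is present in 11 of 91 control and 328 of 736 mutant cells.

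Several pairs of genes of a kind varied together among the cells, but not all did in both libraries. Sfrp2 and Wif1, both secreted Wnt inhibitors, had r of 0.52 in the control and -0.06 in the mutant. Acta2 and Tagln had r of 0.50 in the control and 0.79 in the mutant, and Acta2 and Myl9 0.38 and 0.68. Col3a1 and Col1a1 had 0.83 and 0.60, Tnn and Thbs2 0.84 and 0.42, and Dcn and Postn 0.57 and 0.39. Tnn and Fbln1, a fibulin, went apart, with -0.60 and -0.39. Fos and Junb had 0.86 and 0.69. Acta2 and Sfrp2 had little relation in the control (-0.02) and a weak one in the mutant (0.24).

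The differences between libraries were also read within ranges of Sfrp2. At or above 8 of 4000 UMIs were 38 of 91 control cells and 484 of 736 mutant cells, with 21 and 145 cells near that limit, which was chosen with the values in view. These are ranges of one gene and not cell types, and they do not match the libraries on Sfrp2: it was at 7546 and 16932 CPM in the rich range, a ratio of 2.24 (2.12 to 2.38), and at 335 and 516 CPM in the poor range, a ratio of 1.54 (1.20 to 2.00). Whether this has a part in the values of genes that vary with Sfrp2 among cells, such as Dcn, was not tested. In the Sfrp2-rich range Acta2 was at 52.6 and 1011 CPM, a ratio of 19.2 (9.73 to 44.5), and in the Sfrp2-poor range at 118 and 532 CPM, a ratio of 4.51 (3.02 to 7.03). Tnn was lower in both ranges, 3.44-fold (2.95 to 4.0) and 4.44-fold (3.80 to 5.18).

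Several other differences reached 2-fold in one range only. Dcn was at 1776 and 507 CPM in Sfrp2-rich cells, 3.51-fold lower (3.05 to 4.02), but at 2533 and 2753 CPM in Sfrp2-poor cells. Gpha2 was at 1625 and 270 CPM in the rich range and at 1207.5 and 1403 CPM in the poor one. Ctgf was at 888 and 149 CPM in the rich range and at 906 and 788 CPM in the poor one. Fos was the reverse, at 941 and 670 CPM in Sfrp2-rich cells and 3132 and 1381 CPM in Sfrp2-poor cells, 2.27-fold lower (2.06 to 2.49) in the latter. Igf2 was at 184 and 748 CPM in rich cells and at 127 and 193 CPM in poor cells. The difference of these ratios between the ranges was not tested.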

How the data were processed

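Single-cell UMI counts per gene and cell were deposited by the authors as a matrix of 19626 genes and 23528 cells, with a cell table that gave each cell's library and cluster number. Cell Ranger, Seurat 3 and the mm10 build are named per the submitters' processing notes; the version of Cell Ranger, the cell filters and the clustering settings are not given in the sources used here. Doublets were not called and no cell was removed. UMI counts were summed per cluster and library and divided by the sum over all genes (CPM). Ratios carry exact conditional intervals of 2 Poisson counts and shares Clopper-Pearson intervals, both at 95% and for counting error only. The ratio calculation was run on simulated Poisson counts with known ratios. Such counts follow the model of the interval, so the run cannot show how it holds where cells vary more than that. Ordering of genes across clusters used 10 CPM added to both sides. With 1 mouse per group no test between groups was run.

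Named genes were the 12 higher and 12 lower whose interval lay farthest from a ratio of 1 (sex-linked, mitochondrial, ribosomal and haemoglobin genes not eligible), the leading genes of the cluster, the first 12 each way against clusters 13 and 21, the 8 most like Sfrp2, and up to 5 members of each of 21 marker and 27 function lists, of which 14 of 610 genes are absent from the matrix under the names used. A few genes that this rule allows are not reported here. The members and lists were chosen with earlier results of these data known. The genes set out within Sfrp2 ranges and in pairs among cells were chosen after their values were seen. Positions are from GENCODE M21 (GRCm38), and promoter sequences from RefSeq (GRCm38.p6); 7 of 10 genes looked up had one. Alternatives were TMM factors (edgeR 4.0.16), median-of-ratios factors (DESeq2 1.42.0, R 4.3.3), totals without the 20 most abundant transcripts, stricter cell limits, thinning to 1000 UMIs, CPM averaged over cells, dropping the deepest 5% of cells, and a lower expression limit. Python 3.11.15 was used with scipy 1.17.1, matplotlib 3.10.9, pandas 2.3.3 and numpy 2.4.6.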

Additional observations from a re-analysis of the deposited data

Results flagged for a closer look

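Acta2, smooth muscle alpha-actin, went opposite ways in 2 fibroblast-like clusters of the same libraries. In cluster 7 the mutant over control ratio was 10.3 (74.7 and 769.6 CPM), and in cluster 13 it was 0.449 (827 and 372 CPM). The difference between the clusters was not tested, since each group is 1 mouse.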

How the results depend on the processing

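No paired analysis was possible because each group is 1 mouse, and leaving out a replicate was not possible for the same reason. Of 45 single genes that differed at least 2-fold and were followed under the alternatives, 1 of 292 values changed sign: Gpha2, at 0.22 on the log2 scale in cells below 8 Sfrp2 UMIs, a split chosen after seeing the data. Ratios with 0 UMIs on one side were left out of these values. Cartpt and Sst were therefore not followed, and Scg2 was not counted without its top cells. Over all single genes followed, 115 values moved by more than their counting interval, 237 did not and 1 reversed. The counts of called genes moved with the expression limit: with 20 UMIs and 20 CPM, which admits 6829 genes, 177 were higher and 119 lower in the mutant, 310 were higher than in cluster 13, and 641 were higher and 329 lower than in cluster 21. Thinned to 1000 UMIs per cell, 212 genes were higher in the mutant, and 45 of the 73 and 20 of the 53 first called were among those called there; the thinned control sum holds fewer UMIs. With stricter cell limits the share of cluster 7 was 1.75% of 4064 control cells and 8.52% of 7362 mutant cells, and 7 genes were lower than in cluster 21; the cause was not tested. Under the other scalings of the totals, the median log2 ratio of all genes was between 0.0042 and 0.021, and at least 69 of the 73 higher and all 53 lower calls were kept. Inmt was lower by 0.63 on the log2 scale in thinned cells, Fos by 0.95 and Ier2 by 0.93 with stricter cell limits, under the 2-fold limit. Of list medians, 166 values moved by less than 0.5 on the log2 scale and 4 by more: adventitial fibroblast markers (-0.94 thinned), erythroid genes (-0.27 thinned and -2.14 without the deepest 5% of cells, from 0.23) and free RNA genes (-1.51 without the deepest 5%). The control sum of cluster 7 comes from 102 cells, so 1 cell can set a low gene.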
